A study of Homo sapiens with 6 samples.

Results

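The 41 genes described here are listed as transcribed in response to p53. Their list leaves out the families of DNA repair factors, CDK inhibitors, BCL2 proteins and death receptors. The members were chosen by name, and each of the 41 symbols matched 1 Ensembl identifier among the 79302 genes of the deposited count table. Their transcripts were measured by RNA-seq in HCT116, a human colorectal cancer cell line. Lentiviral shRNA had been used to lower GDPD5, a glycerophosphodiester phosphodiesterase, in 3 libraries (shGDPD5), and 3 libraries carried a control shRNA (shCtrl). All 6 libraries came from a radioresistant derivative of HCT116, made by 25 rounds of irradiation and collected 6 h after a dose of 4 Gy, as the accompanying article describes. The sample labels themselves give only the cell line and the shRNA. No unirradiated or parental cells are among these libraries, so each value below compares irradiated resistant cells with irradiated resistant cells. Which of the GDPD5 hairpins was sequenced is not named. Replicates may or may not be separate cultures, which neither labels nor methods state, and the p-values therefore cover the spread among these libraries only, which may be technical.

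The transcription factor p53 is held at low levels by the ubiquitin ligase MDM2 and is stabilised when DNA is damaged, for instance by ionizing radiation. It then binds a paired DNA element near its target genes and raises their transcription. Besides cell cycle arrest, repair and death, its targets send signals to other cells, feed back on p53 and on the kinase AKT, handle RNA, alter metabolism and shape the cell surface. The 41 genes were sorted along these roles into 3 secreted ligands, 7 regulators of growth and cell cycle, 7 genes of p53, AKT and death-domain signalling, 6 genes acting on RNA, DNA or chromatin, 11 metabolic and mitochondrial genes, and 7 genes of membranes, junctions and vesicles.

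Because p53 acts through a DNA element, the promoters of the members were searched for it, and the matches are shown to place the binding letters beside the direction in which each gene moved. The RefSeq promoter table (GRCh38.p14, 250 bases before to 50 bases after each start) held 32 of the 41 genes. The p53 response element was searched over 20 letters, with both cores of 4 letters intact (C, a pair of A or T in any order, then G), up to 3 of the letters outside the cores off and a spacer of at most 1 base. The element reads as the same pattern on either strand, so both strands were covered. These matches are printed 5′ to 3′ on the strand of the gene, with the cores in capitals.
AEN: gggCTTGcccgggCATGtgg
GDF15: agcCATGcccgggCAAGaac
RPS27L: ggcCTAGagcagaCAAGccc
The AEN match lies at chr15:88621306-88621325 on the plus strand, 34 to 15 bases before the start, with 2 letters off. That of GDF15 lies at chr19:18386186-18386205 on the plus strand, 28 to 47 bases after the start, with 3 letters off. In RPS27L it lies at chr15:63157527-63157546 on the minus strand, 69 to 50 bases before the start, with 3 letters off. These distances are from the RefSeq starts. The GENCODE bounds given below for AEN and GDF15 begin elsewhere, and the matches of both genes lie within them. These 3 genes are 9.38% of the 32, and 278 of all 27305 genes with a promoter (1.02%) held such a match. Because the members were listed as p53-activated genes, a share above that of all genes is no result about the shGDPD5 libraries. AEN transcripts were higher in the shGDPD5 libraries, those of GDF15 were lower and those of RPS27L did not pass the test, so that 1 match fell in each class. With at most 2 letters off, AEN alone of the 32 matched, as did 97 of the 27305 genes, and the looser limit of 3 was set after that result was seen. A match is a likeness of letters and not a measured binding site, and a gene without one may hold an element outside these 300 bases.

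Depth was similar across libraries, with 16715447 to 18510670 counts in the shGDPD5 libraries and 17602320 to 18076702 in the shCtrl libraries. Levels are given as CPM, the counts of a gene scaled to a common library size, after TMM normalization, and fold changes are log2 ratios of shGDPD5 over shCtrl from the quasi-likelihood fit of edgeR with Benjamini-Hochberg adjusted p. GDPD5 itself (ENSG00000158555) had 5.44, 5.55 and 5.19 CPM in the shGDPD5 libraries, against 8.33, 11.6 and 9.75 CPM in the shCtrl libraries, so the groups did not overlap (log2 fold change -0.88 ± 0.13 SE, adjusted p = 0.000116, edgeR). Of 10 epithelial markers, 8 could be tested and all 8 were lower in shGDPD5 at an adjusted p under 0.05, beside 30.1% of all tested genes. Their log2 fold changes ran from -0.16 (KRT8, whose groups overlapped) to -1.07 (CLDN7). The 10 markers summed to 2795 to 2904 CPM in the shGDPD5 libraries and 3575 to 4086 CPM in the shCtrl libraries. The intestinal marker CDX1 had 0 counts in every library. Of 12 markers of blood, endothelial, stromal and muscle cells, 5 had 0 counts in all libraries and 3 could be tested. CD68, listed as a macrophage marker, averaged 2.66 ± 0.235 CPM in shGDPD5 and 8.21 ± 2.34 CPM in shCtrl (SD, n = 3 each). It was lower (log2 fold change -1.63, adjusted p = 1.82e-05), while COL1A1 (0.11, adjusted p = 0.242) and MYH11 (-0.45, adjusted p = 0.190) did not pass. The blood cell marker PTPRC had 0 to 2 counts per library, and which cells held the CD68 transcripts was not tested. The 12 markers summed to 23.8 to 26.9 CPM in the shGDPD5 libraries and 26.4 to 32.8 CPM in the shCtrl libraries, most of it COL1A1 at a mean of 22.001 CPM in shGDPD5 and 20.3 CPM in shCtrl. Between replicates the counts varied beyond sampling noise (chi-square over its degrees of freedom 1.67 to 7.21), most of all in the pairs with shCtrl replicate 1 (6.20 and 7.21).

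The p53-activated genes moved in both directions. Of the 41, 39 passed the filter on low counts, and 16 of these rose and 15 fell in shGDPD5 at an adjusted p under 0.05. Together these are 79.5% of the 39, while 59.7% of all 16755 tested genes passed the same test, 29.7% of them higher and 30.1% lower. Among genes with a mean of at least 10 CPM the share called was 70.2%, and 29 of the 37 members at that level were called. Their median log2 fold change was 0.09 with a range of -1.12 to 1.26, beside a median of 0.01 over all tested genes. The median size of the change, without regard to sign, was 0.36 for the members and 0.36 for all tested genes. In 17 members every shGDPD5 library lay above every shCtrl library and in 16 every one lay below, while among all tested genes 32.6% lay above, 32.4% below and 64.9% either way. An adjusted p under 0.05 with a log2 fold change of at least 0.58 in size was reached by 13 members, 7 higher and 6 lower, beside 27.9% of all tested genes (13.2% higher and 14.7% lower). The methods of the study name 2 fold thresholds, and both are given here with the unadjusted p of edgeR under 0.05 in place of the t test named there. At a log2 fold change of at least 1 in size, PIDD1 was higher and GDF15 and ALOX5 were lower, 3 of 39 where 12% of tested genes passed (5.38% higher and 6.6% lower). At a fold over 1.5 or under 0.5, 7 members were higher (PIDD1, PLK2, AEN, FDXR, PERP, TP53INP1 and ABHD4), where 13.6% of tested genes were, and the lower members were again GDF15 and ALOX5. Without shCtrl replicate 3 only ALOX5 remained among the lower genes at either threshold for a fall, since GDF15 then stood at -0.99. Without shGDPD5 replicate 2, GDF15 stood at -0.94 and TRIM22 at -1.02. In bulk RNA, fewer cells that express a gene and less RNA per cell cannot be told apart.

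**Figure D1:**
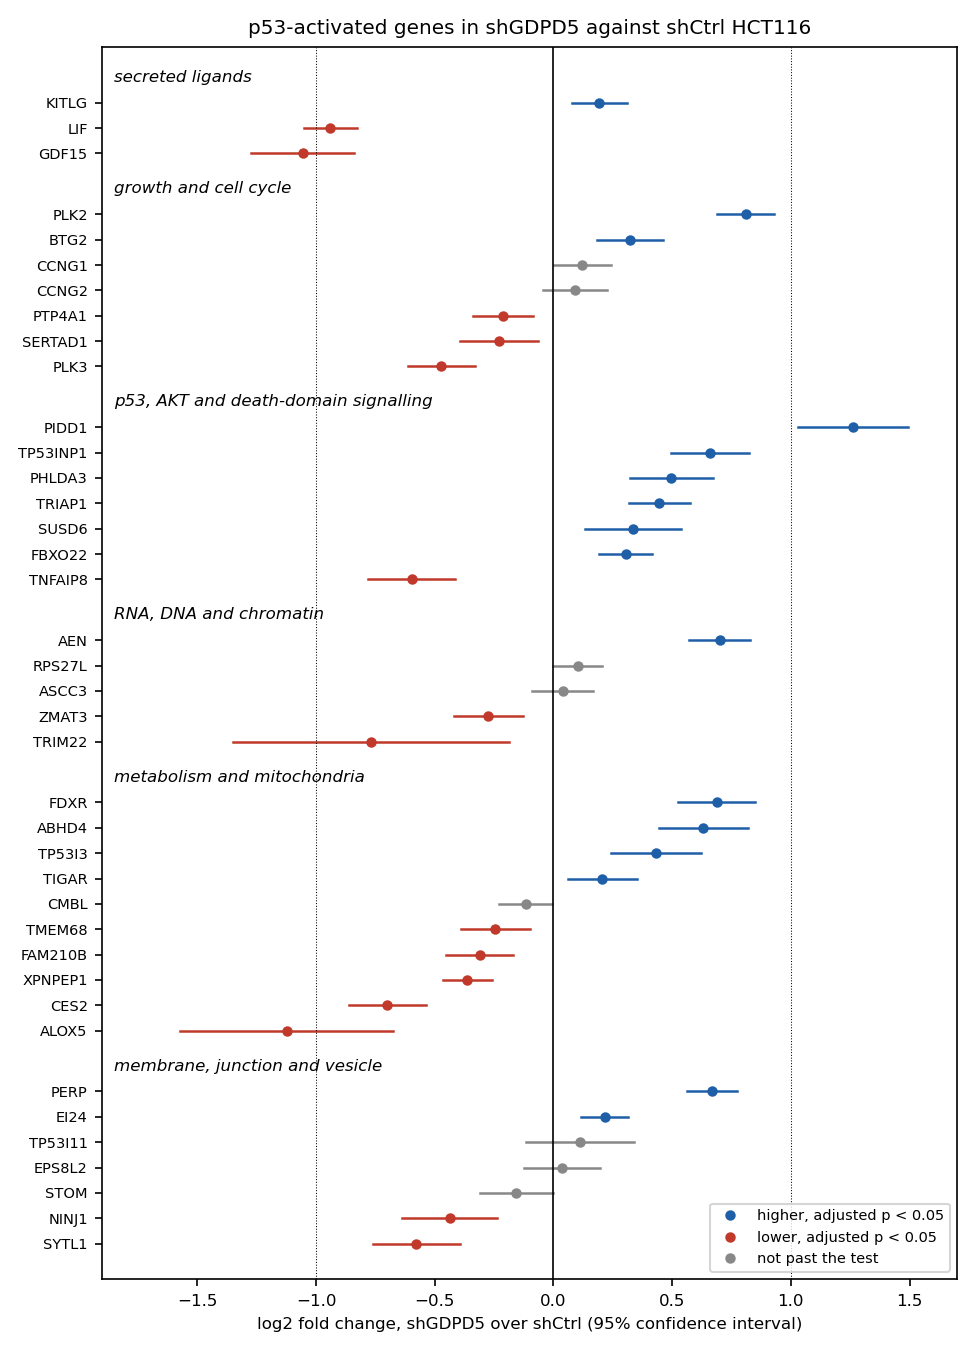
Log2 fold changes (x axis, shGDPD5 over shCtrl) of the 39 tested p53-activated genes, grouped by role (y axis), with points for the edgeR estimate, bars for its 95% confidence interval and dotted lines at -1 and 1. Blue genes were higher (16), red genes lower (15) and grey genes not past an adjusted p of 0.05 (8), and each role holds genes on both sides of 0.

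The spread within a group was small for most members. Their median coefficient of variation was 3.43% over the shGDPD5 libraries and 6.39% over the shCtrl libraries. Among the shCtrl libraries, replicate 1 was the highest in 16 of the 39 members, the lowest in 16 and in the middle in 7, so it deviated in both directions rather than in one.

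**Figure D2:**
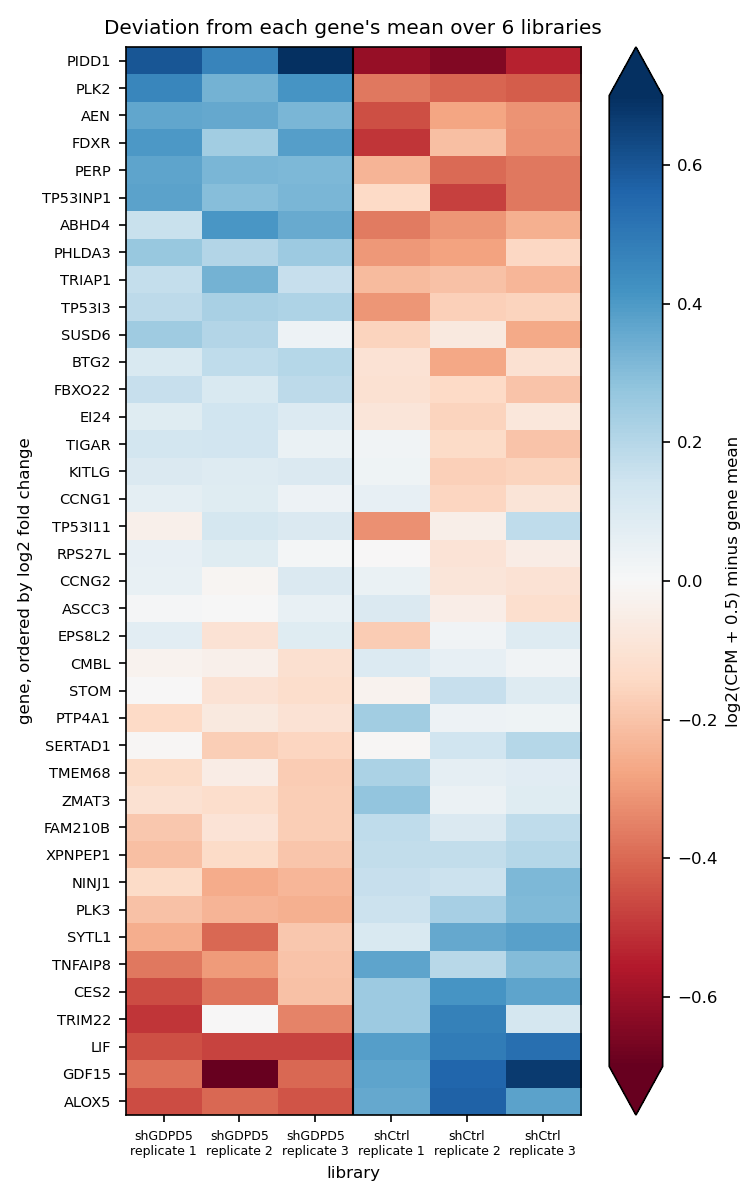
Deviation of each of 39 p53-activated genes (y axis, ordered by log2 fold change) from its own mean over the 6 libraries (x axis, shGDPD5 replicates left of shCtrl replicates), in log2(CPM + 0.5). Blue is above and red below the gene mean, and the colours change at the line between the groups at the top and bottom of the plot but fade for the genes in the middle.

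Of the 3 secreted ligands, the cytokines GDF15 and LIF had the lowest log2 fold changes of the set apart from ALOX5, and KITLG was slightly higher in shGDPD5. GDF15 (ENSG00000130513, chromosome 19 from 18374731 to 18389176), a stress-induced ligand of the TGF-beta superfamily that acts on the brainstem receptor GFRAL, had 236, 177 and 234 CPM in the shGDPD5 libraries, against 399, 455 and 491 CPM in the shCtrl libraries. The highest shGDPD5 library was thus below the lowest shCtrl library, and shGDPD5 replicate 2 was the lowest of all. The mean was 216 ± 33.2 CPM in shGDPD5 and 449 ± 46.3 CPM in shCtrl (SD, n = 3 each), a log2 fold change of -1.06 ± 0.10 (95% interval -1.27 to -0.84, adjusted p = 1.67e-06).

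LIF (ENSG00000128342, chromosome 22 from 30240447 to 30246851), a cytokine of the interleukin-6 family that signals through gp130, had 73.9, 72.7 and 72.9 CPM in the shGDPD5 libraries, against 133, 142 and 146 CPM in the shCtrl libraries. The shGDPD5 libraries hardly differed from each other, and the groups were far apart (log2 fold change -0.94 ± 0.05, adjusted p = 1.23e-08, the smallest of the set). KITLG, the ligand of the receptor KIT, had 815, 808 and 814 CPM in the shGDPD5 libraries, against 776, 675 and 680.1 CPM in the shCtrl libraries. Here shCtrl replicate 1 came close to the shGDPD5 libraries, and the log2 fold change was 0.19 ± 0.05 (adjusted p = 0.00729), which did not pass with a separate test per gene (adjusted p = 0.0717). KITLG shares 80 exonic bases with an antisense transcript, AC024941.2, that averaged 3.77 CPM in shGDPD5 and 8.69 CPM in shCtrl. Because the use of strand in the counting is not given, reads of overlapping antisense genes cannot be told apart.

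Among the 7 growth and cell cycle genes, 2 were higher, 3 were lower and 2 did not pass the test. Of all tested genes, 29.7% were higher and 30.1% lower. Both polo-like kinases of the set changed, 1 in each direction. PLK2 (ENSG00000145632, chromosome 5 from 58453982 to 58460260), a stress-responsive kinase that also acts in centriole duplication, had 83.2, 76.2 and 80.6 CPM in the shGDPD5 libraries, against 46.6, 45.4 and 44.9 CPM in the shCtrl libraries. All shGDPD5 libraries were clearly the higher ones, at 80.0 ± 3.52 CPM against 45.6 ± 0.909 CPM in shCtrl (SD, n = 3 each), a log2 fold change of 0.81 ± 0.05 (adjusted p = 8.12e-08). PLK3 (ENSG00000173846), a related kinase of the DNA damage response, had 25.4, 24.8 and 24.6 CPM in the shGDPD5 libraries, against 32.7, 34.6 and 36.6 CPM in the shCtrl libraries. Its groups did not overlap either, with the shGDPD5 libraries low (log2 fold change -0.47 ± 0.06, adjusted p = 4.42e-05).

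BTG2, an antiproliferative partner of the CCR4-NOT deadenylase, averaged 45.2 ± 1.47 CPM in shGDPD5 and 36.1 ± 2.39 CPM in shCtrl (SD, n = 3 each; log2 fold change 0.32, adjusted p = 0.000807). PTP4A1, a membrane-bound phosphatase, stood at -0.21 (adjusted p = 0.00693), which did not pass with a separate test per gene (adjusted p = 0.0801). It shares 79.0% of its exonic bases with AL135905.2 on the same strand, so its count is uncertain. SERTAD1, a regulator of CDK4 and of E2F, stood at -0.23 (adjusted p = 0.0201). That call was lost when any of shCtrl replicate 2 or 3 or shGDPD5 replicate 2 or 3 was left out, with log2 fold changes of -0.22, -0.19, -0.20 and -0.21 and adjusted p of 0.0609, 0.0753, 0.0678 and 0.0713. The cyclins CCNG1, which guides the phosphatase PP2A to MDM2, and CCNG2 overlapped between groups, with log2 fold changes of 0.12 (95% interval 0.00 to 0.24, adjusted p = 0.0751) and 0.09 (95% interval -0.04 to 0.22, adjusted p = 0.230). Without shCtrl replicate 1 they stood at 0.18 (adjusted p = 0.000622) and 0.13 (adjusted p = 0.0373).

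In the p53, AKT and death-domain group, 6 of 7 genes were higher in shGDPD5 and 1, TNFAIP8, was lower, with a median log2 fold change of 0.45. Among all tested genes 29.7% were higher and 30.1% lower, and the lists were drawn up with earlier results of these data known. PIDD1 (ENSG00000177595, chromosome 11 from 799179 to 809753), the death-domain scaffold of the complex that activates caspase-2, had 15.5, 14.1 and 17.2 CPM in the shGDPD5 libraries, against 6.46, 6.26 and 6.80 CPM in the shCtrl libraries. Every shGDPD5 library held more than double the level of any shCtrl library, at 111 to 305 counts per library. The mean of 15.6 ± 1.56 CPM in shGDPD5 was 2.40-fold that of 6.51 ± 0.273 CPM in shCtrl (SD, n = 3 each), a log2 fold change of 1.26 ± 0.11 (95% interval 1.03 to 1.49, adjusted p = 6.34e-07) and the highest of the set. PIDD1 shares 107 of its 5869 exonic bases with the ribosomal protein gene RPLP2 on the other strand, which averaged 408 CPM in shGDPD5 and 412 CPM in shCtrl.

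TP53INP1 (ENSG00000164938), a p53-interacting protein that promotes p53 phosphorylation and autophagy, had 79.8, 75.5 and 76.8 CPM in the shGDPD5 libraries, against 55.6, 44.0 and 47.3 CPM in the shCtrl libraries. It was higher in every shGDPD5 library, although shCtrl replicate 1 stood above the other controls (log2 fold change 0.66 ± 0.08, adjusted p = 9.46e-06). TNFAIP8 (ENSG00000145779), a cytosolic protein that restrains caspase-mediated death, had 12.97, 13.7 and 14.7 CPM in the shGDPD5 libraries, against 22.01, 19.5 and 21.05 CPM in the shCtrl libraries. The groups were separate with shGDPD5 low, at a log2 fold change of -0.60 ± 0.08 (adjusted p = 5.59e-05).

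PHLDA3, whose pleckstrin homology domain competes with AKT for membrane lipids, averaged 19.6 ± 0.430 CPM in shGDPD5 and 13.9 ± 0.870 CPM in shCtrl (SD, n = 3 each; log2 fold change 0.50, adjusted p = 0.000172). TRIAP1, which works with PRELI proteins in mitochondrial phospholipid transfer, averaged 72.0 ± 4.88 CPM in shGDPD5 and 52.9 ± 0.497 CPM in shCtrl (log2 fold change 0.45, adjusted p = 3.23e-05). SUSD6, a sushi-domain membrane protein, and FBXO22, an F-box subunit of a ubiquitin ligase, had smaller log2 fold changes, 0.34 (adjusted p = 0.00750) and 0.30 (adjusted p = 0.000276). In none of these 4 genes did the groups overlap, which also held for 64.9% of all tested genes. FBXO22 shares 1917 of its exonic bases (16.2%) with NRG4 on the other strand, which averaged 4.74 CPM in shGDPD5 and 1.80 CPM in shCtrl.

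**Figure D3:**
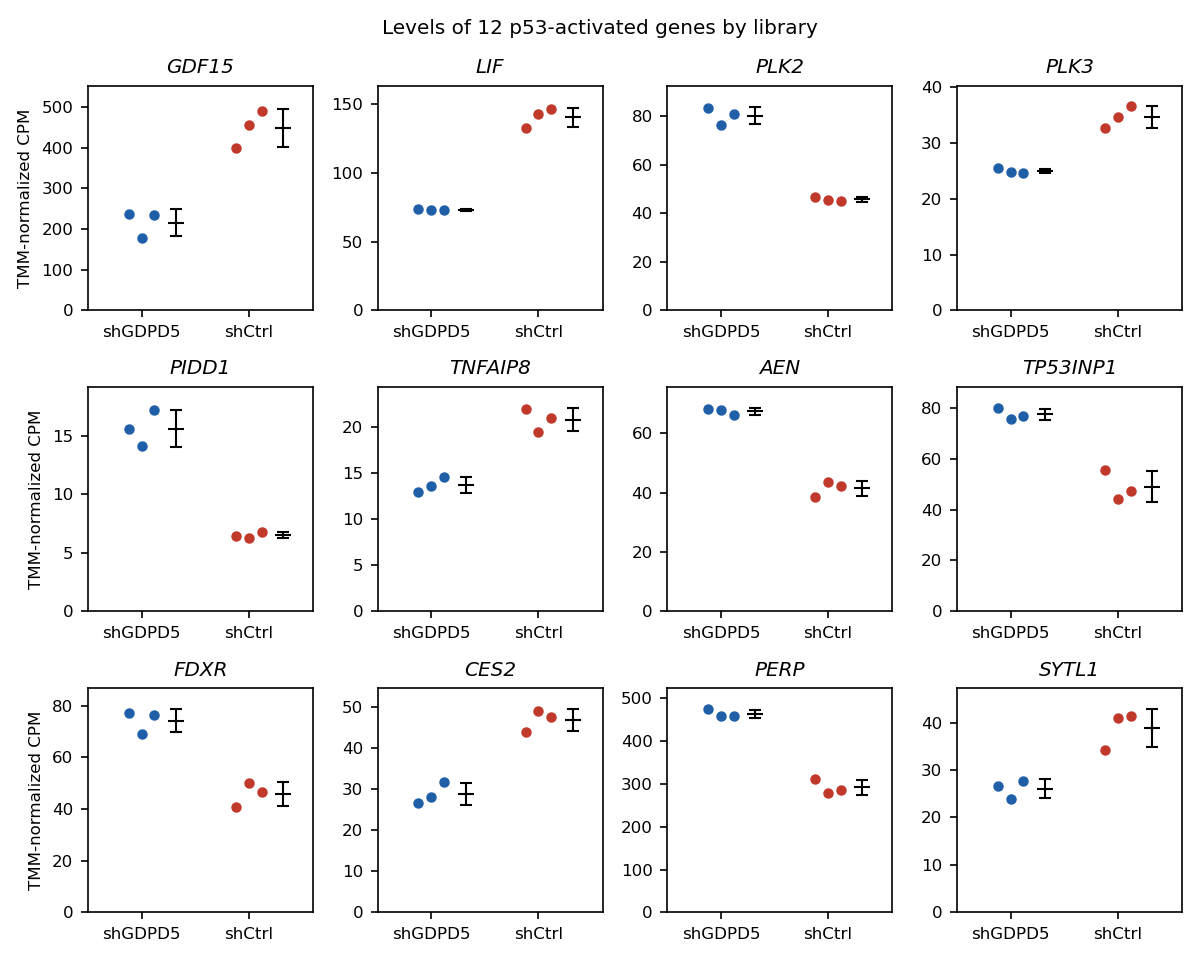
TMM-normalized CPM (y axis, from 0) of 12 p53-activated genes in the single libraries (points, replicates 1 to 3 from left to right) of shGDPD5 (blue, left) and shCtrl (red, right), with the mean and SD of 3 libraries as black bars. The 12 genes were picked among the called members, so separate groups in every panel follow from that choice. Of all tested genes, 64.9% had groups that did not overlap. The shGDPD5 libraries lie above shCtrl in PLK2, PIDD1, AEN, TP53INP1, FDXR and PERP. They lie below it in GDF15, LIF, PLK3, TNFAIP8, CES2 and SYTL1.

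The 6 genes that act on RNA, DNA or chromatin held 1 higher and 2 lower genes among the 5 tested. Over all tested genes the shares were 29.7% higher and 30.1% lower. AEN (ENSG00000181026, chromosome 15 from 88621296 to 88632282), a nuclear exonuclease that enhances apoptosis and whose promoter match is shown above, had 68.2, 67.8 and 66.0 CPM in the shGDPD5 libraries, against 38.5, 43.5 and 42.3 CPM in the shCtrl libraries. The shGDPD5 libraries were the higher ones without overlap (log2 fold change 0.70 ± 0.06, adjusted p = 6.29e-07). ZMAT3 (ENSG00000172667), a zinc finger protein that binds RNA and alters splicing, had 50.5, 50.01 and 48.2 CPM in the shGDPD5 libraries, against 66.1, 55.9 and 57.8 CPM in the shCtrl libraries. Each shGDPD5 library was below each shCtrl library, of which replicate 1 was the highest, and the log2 fold change was -0.27 ± 0.07 (adjusted p = 0.00364).

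TRIM22 (ENSG00000132274), an antiviral ubiquitin ligase of the tripartite motif family, had 0.760, 1.28 and 0.902 CPM in the shGDPD5 libraries, against 1.63, 1.98 and 1.44 CPM in the shCtrl libraries, from 13 to 35 counts per library. The groups did not overlap, but the counts were few and the log2 fold change of -0.77 ± 0.27 (adjusted p = 0.0255) lost its call without shCtrl replicate 2 (-0.64, adjusted p = 0.1065), without shGDPD5 replicate 1 (-0.62, adjusted p = 0.0992) and without shGDPD5 replicate 3 (-0.71, adjusted p = 0.0793). RPS27L, a paralog of ribosomal protein S27, had 132, 135 and 128 CPM in the shGDPD5 libraries, against 127, 119 and 123 CPM in the shCtrl libraries. Its groups did not overlap although the test was not passed (log2 fold change 0.10, adjusted p = 0.0801), and it was 0.12 (adjusted p = 0.0105) without shCtrl replicate 1. ASCC3, a helicase of the ASC-1 complex, overlapped between groups (log2 fold change 0.04, 95% interval -0.09 to 0.17, adjusted p = 0.6003). It was 0.10 (adjusted p = 0.0436) without shCtrl replicate 1 and -0.02 without shCtrl replicate 3. PADI4, which converts arginine to citrulline in histones, had 3, 4 and 2 counts in the shGDPD5 libraries, against 3, 3 and 4 counts in the shCtrl libraries, and was not tested.

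The 11 metabolic and mitochondrial genes were split, with 4 higher and 5 lower among the 10 tested and a median log2 fold change of -0.18. For comparison, 29.7% of all tested genes were higher and 30.1% lower. FDXR (ENSG00000161513, chromosome 17 from 74862497 to 74873031), the ferredoxin reductase of mitochondrial electron transfer, had 77.0, 69.1 and 76.4 CPM in the shGDPD5 libraries, against 41, 50.3 and 46.7 CPM in the shCtrl libraries. All shGDPD5 libraries were above all shCtrl libraries (log2 fold change 0.69 ± 0.07, adjusted p = 5.95e-06). ABHD4 (ENSG00000100439), a hydrolase of N-acylated phospholipids, had 20.9, 25.03 and 24.1 CPM in the shGDPD5 libraries, against 14.5, 15.1 and 15.7 CPM in the shCtrl libraries. It was likewise higher without overlap, with a log2 fold change of 0.63 ± 0.09 (adjusted p = 4.28e-05).

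CES2 (ENSG00000172831, chromosome 16 from 66934444 to 66945096), a carboxylesterase that activates the prodrug irinotecan, had 26.6, 28.2 and 31.8 CPM in the shGDPD5 libraries, against 44.0, 49.0 and 47.6 CPM in the shCtrl libraries. The shGDPD5 libraries were the lower ones throughout, at a log2 fold change of -0.70 ± 0.07 (adjusted p = 4.79e-06). ALOX5 (ENSG00000012779), the lipoxygenase that begins leukotriene synthesis, had 1.11, 1.17 and 1.13 CPM in the shGDPD5 libraries, against 2.33, 2.77 and 2.36 CPM in the shCtrl libraries. The groups were well apart at only 19 to 49 counts per library, and its log2 fold change of -1.12 ± 0.21 (95% interval -1.57 to -0.67, adjusted p = 0.000476) was the lowest of the set. On the log2(CPM + 1) scale, which compresses low levels, it was -0.70.

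Smaller changes were seen in TP53I3, a quinone oxidoreductase, at 0.43 on the log2 scale (adjusted p = 0.000890) and in XPNPEP1, a cytosolic aminopeptidase, at -0.36 (adjusted p = 3.17e-05). FAM210B, a mitochondrial membrane protein, stood at -0.31 (adjusted p = 0.00113) and TMEM68, an acyltransferase of triglyceride synthesis, at -0.25 (adjusted p = 0.00676). In these 4 genes too the groups did not overlap, beside 64.9% of all tested genes. TMEM68 shares 181 of its 8574 exonic bases with TGS1 on the other strand, which averaged 42.9 CPM in shGDPD5 and 52.8 CPM in shCtrl. TIGAR, a phosphatase that lowers glycolytic flux, stood at 0.21 (adjusted p = 0.0183). It lost its call without shCtrl replicate 2 (0.18, adjusted p = 0.0717) or 3 (0.15, adjusted p = 0.09045) and without shGDPD5 replicate 1 (0.19, adjusted p = 0.0672) or 2 (0.18, adjusted p = 0.0718). TIGAR shares 42.6% of its exonic bases with AC008012.1 on the same strand, which averaged 0 CPM in shGDPD5 and in shCtrl. CMBL, a hydrolase of the cytosol, was at -0.12 (adjusted p = 0.0694) with its groups just separate. SPATA18, which acts in mitochondrial quality control, had 8, 9 and 8 counts in the shGDPD5 libraries, against 8, 5 and 4 counts in the shCtrl libraries. These overlap and were too few to be tested.

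Among the 7 membrane, junction and vesicle genes, 2 were higher and 2 were lower, beside 29.7% and 30.1% of all tested genes. PERP (ENSG00000112378, chromosome 6 from 138088505 to 138107511), a tetraspan protein of desmosomes, had 475, 459 and 458 CPM in the shGDPD5 libraries, against 311, 279.6 and 284 CPM in the shCtrl libraries. It was higher in every shGDPD5 library, at 464 ± 9.43 CPM against 292 ± 17.2 CPM in shCtrl (SD, n = 3 each), with a log2 fold change of 0.67 ± 0.05 (adjusted p = 1.77e-07). SYTL1 (ENSG00000142765), a synaptotagmin-like effector of the vesicle GTPase RAB27, had 26.5, 23.9 and 27.7 CPM in the shGDPD5 libraries, against 34.2, 40.9 and 41.4 CPM in the shCtrl libraries. It was lower in every shGDPD5 library, with shCtrl replicate 1 the lowest control (log2 fold change -0.58 ± 0.08, adjusted p = 7.65e-05).

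NINJ1, which ruptures the plasma membrane of dying cells, was lower (log2 fold change -0.44, adjusted p = 0.00132), and EI24, an autophagy protein of the endoplasmic reticulum, was higher at 0.22 (adjusted p = 0.00142). Both had groups that did not overlap, as did 64.9% of all tested genes. The other 3 genes did overlap and did not pass the test. STOM, a raft protein of the plasma membrane, stood at -0.16 (adjusted p = 0.0730) and of -0.21 (adjusted p = 0.0130) without shCtrl replicate 1. EPS8L2, an adaptor to actin, had 0.04 (95% interval -0.12 to 0.20, adjusted p = 0.679) and -0.04 without shCtrl replicate 1. TP53I11 had 0.11 (95% interval -0.12 to 0.34, adjusted p = 0.380), which was -0.01 without shCtrl replicate 1 and 0.24 (adjusted p = 0.0465) without shCtrl replicate 3. TP53I11 shares 74 exonic bases with TSPAN18 on the other strand, which averaged 11.6 CPM in shGDPD5 and 41.8 CPM in shCtrl.

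The other p53-activated genes of the pathway, 67 by list, were also called in both directions. Of the 64 tested, 30 were higher and 18 were lower in shGDPD5, beside 29.7% and 30.1% of all tested genes. Together these are 75% of the 64, where 59.7% of all tested genes were called. On the log2 scale the median over the 64 was 0.14. At an unadjusted p under 0.05 and a log2 fold change of at least 1 in size, 3 were higher and 5 were lower. Of all tested genes, 5.38% were higher and 6.6% lower at that limit. With a fold over 1.5 or under 0.5, 11 were higher and 5 lower, beside 13.6% and 6.6% of all tested genes. The repair genes DDB2 (log2 fold change 1.597, adjusted p = 7.18e-09) and POLH (1.18, adjusted p = 4.16e-09) and the stress sensor SESN1 (1.04, adjusted p = 2.33e-07) had the smallest p among those higher. Among those lower, ATF3 (-1.88, adjusted p = 9.93e-11) and KLF4 (-1.69, adjusted p = 1.01e-10), which encode transcription factors, and BTG1 (-1.89, adjusted p = 1.31e-10), a relative of BTG2, had the smallest. No test of a difference between this list and the 41 genes was made, and this list too was drawn up with earlier results known.

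Genes activated by ATF4, the transcription factor of the integrated stress response, fell in the same libraries, and their values stand beside the lower p53-activated genes as a measurement only. Of 25 such genes 23 were lower and 1 was higher, beside 30.1% and 29.7% of all tested genes. This list was drawn up with earlier results of these data known, so its share is no independent result. Their median log2 fold change was -1.08. The summed level was 4142 to 4220.3 CPM in the shGDPD5 libraries and 7403 to 7702 CPM in the shCtrl libraries. ATF4 itself was counted in this list and was lower (-0.18, adjusted p = 0.00353). DDIT4 (-2.71, adjusted p = 1.73e-11), STC2 (-2.20, adjusted p = 3.25e-11) and WARS1 (-1.44, adjusted p = 6.70e-11) had the smallest p. The higher gene was CTH, at 0.26 (adjusted p = 0.0149). The summed level of all 41 members was 3596 to 3670.3 CPM in the shGDPD5 libraries and 3493 to 3656 CPM in the shCtrl libraries, ranges that overlap. Abundant members weigh most in that sum, and of these KITLG and PERP were higher while GDF15 and PTP4A1 were lower. An overlapping sum therefore does not mean that single members were unchanged. Whether the fall of the ATF4-activated genes had a part in the members' changes was not tested.

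**Figure D4:**
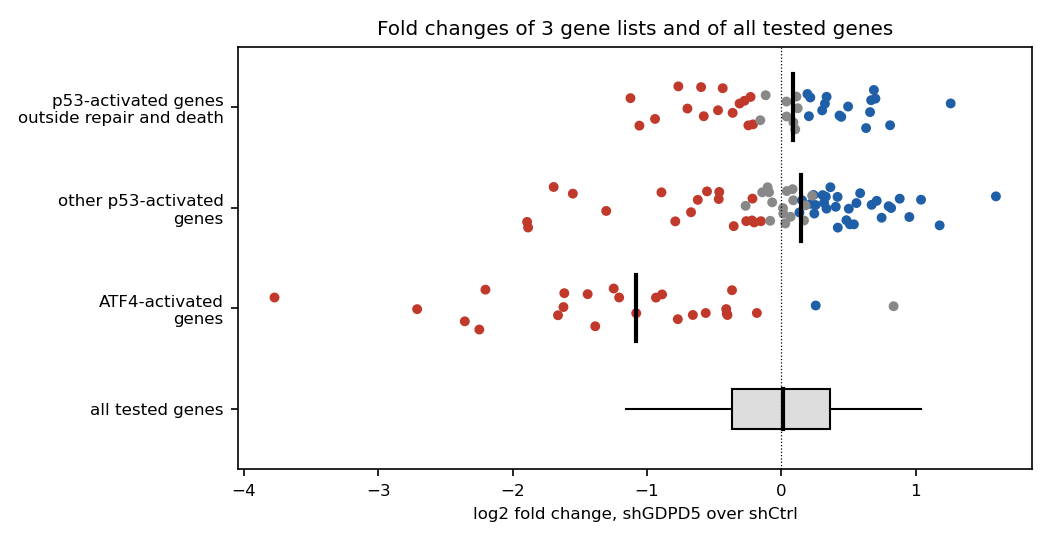
Log2 fold changes (x axis, shGDPD5 over shCtrl) of the tested genes of 3 lists, the 41 p53-activated genes described here, the other p53-activated genes and the ATF4-activated genes, above all 16755 tested genes (y axis). Points are genes (blue higher, red lower, grey not past an adjusted p of 0.05), black bars are medians (0.09, 0.14, -1.08 and 0.01), and the box and whiskers give the percentiles 25 to 75 and 5 to 95 of all tested genes.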

How the data were processed

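The values deposited by the authors are estimated counts of reads per gene, in 1 table for the 6 libraries. RNA was extracted with an RNeasy kit, libraries were made with a SMARTER mRNA-Seq kit, and a company sequenced them. How reads were aligned and counted, with which strand setting and on which genome build, is not given in the sources used here. Estimated counts were rounded to whole numbers (by 0.5 or less). The default filter of edgeR 4.0.16 (minimum count 10) in R 4.3.3 left 16755 of 79302 genes, which were normalized by TMM and tested with the quasi-likelihood test, with p adjusted after Benjamini and Hochberg over all of them. This count test replaced the per-gene test that the study's methods state, which was kept as an alternative. Levels are CPM with TMM factors. Depths of 16715447 to 18510670 counts limit precision for genes of few counts.

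Columns were matched to groups by the sample labels, and 0 sample columns were left unused. The members and lists were chosen with earlier results of these data known. Values per library are given for members with an adjusted p under 0.05 and a log2 fold change of at least 0.58 in size, for the member of smallest adjusted p in each direction of each role, and for members of low counts or whose libraries stand apart. Of the other lists, up to 3 genes in each direction are named. Positions and exon overlaps are from GENCODE release 29 on GRCh38.

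Alternatives were RLE, upper quartile and no composition factors, DESeq2 1.42.0, limma-voom (limma 3.58.1), a separate test per gene on log2(CPM + 1), no filter, a filter of 10 counts per library, the replicate number as a block, leaving out single libraries, and a fold over 1.5 or under 0.5. The edgeR step was tested on simulated data of the same 2 groups, with 16456 genes in the fit. On the log2 scale it recovered 28 of 32 genes lowered by 1 and 32 of 36 raised by 1. It recovered 18 of 33 lowered by 0.6 and 23 of 39 raised by 0.6, and called 18 of 16259 unchanged genes. In the measured libraries 59.7% of tested genes were called. Recovery with so large a share of changed genes was not tested.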

Additional observations from a re-analysis of the deposited data

How the results depend on the processing

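Of the 31 called members, 26 kept their call under all 15 alternatives (14 of 16 higher, 12 of 15 lower). The exceptions were KITLG and PTP4A1 (separate test per gene only), SERTAD1, TRIM22 and TIGAR, whose highest adjusted p were 0.0717, 0.0801, 0.0848, 0.1065 and 0.0905. Of the 8 members that did not pass, CMBL alone kept that verdict and its direction throughout. CCNG1 and RPS27L passed with upper quartile factors (adjusted p = 0.0460 and 0.0470) and with total counts only (0.0116 and 0.00888), and CCNG1, CCNG2, RPS27L, ASCC3, STOM and TP53I11 each passed without 1 shCtrl library. TRIM22 also lost its call with DESeq2 (adjusted p = 0.1048) and with the separate test per gene (adjusted p = 0.0628, log2 fold change -0.44). Between 14 and 20 members were higher and between 12 and 16 lower. With total counts only, the members' median log2 fold change was 0.15 (0.09 with TMM) and that of all tested genes 0.07 (0.01 with TMM). The count of members lower at an unadjusted p under 0.05 and a log2 fold change of -1 or less was 1 with total counts only and with the separate test per gene, against 2 with TMM and edgeR, and 1 to 2 when single libraries were left out. The GDF15 value was -0.996 with total counts only. With a fold over 1.5 or under 0.5, 7 members were higher, against 1 at a log2 fold change of at least 1, because the first of these limits is looser. Leaving out single libraries turned the sign of 3 members that did not pass the test, ASCC3, EPS8L2 and TP53I11. The log2 fold change of ASCC3 ranged over -0.0154 (without shCtrl replicate 3) to 0.0991, that of EPS8L2 over -0.0415 (without shCtrl replicate 1) to 0.0891, and that of TP53I11 over -0.0126 (without shCtrl replicate 1) to 0.237.

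No pairing by replicate number was visible. Deviations of same-numbered libraries correlated at -0.07, -0.05 and -0.04, and those of other pairs at -0.02 to 0.07. How the cultures were handled is not stated, so whether libraries were paired remains unknown. With the replicate block, 16 members were higher and 15 lower, as without it, and over all genes 4792 were higher and 4853 lower, against 4971 and 5035 without it. PADI4 and SPATA18 had too few counts to pass the filter, and without it had adjusted p of 0.883 and 0.540.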
